A study of Mus musculus with 187 samples.

Results

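Cholesterol is made in animal cells from acetyl-CoA through the mevalonate and squalene pathway, and 8 genes of this pathway were followed here in single mouse embryos. The genes, chosen by name with earlier results of these data known, were Hmgcs1, Idi1, Fdps, Fdft1, Sqle, Lss, Cyp51 and Dhcr7. Each of the 8 had a row in all 3 tables of embryos, which list 8735 genes (sperm RNA, 2-cell), 8805 genes (tRNA fragments, 2-cell) and 23534 features (4-cell). On mm10, per the files, Idi1 (chr13:8885605-8892396) and Hmgcs1 (chr13:119690461-119708077) share a chromosome. Each of the others lies on its own, with Sqle at chr15:59315091-59331193, Fdps at chr3:89093587-89101967, Fdft1 at chr14:63145149-63177793, Lss at chr10:76531626-76553934, Cyp51 at chr5:4080673-4104697 and Dhcr7 at chr7:143823166-143848410. A tRNA fragment (tRF) is a short RNA cut from a transfer RNA, and such fragments are abundant in mature sperm.

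RNA of 186 single embryos of the FVB mouse strain was measured with a single-cell RNA sequencing protocol. Control-diet males and females gave the gametes for in vitro fertilisation, and zygotes were injected 2 h later. 2-cell embryos were collected 32 h after fertilisation, and only embryos with a GFP signal were taken, per the labels' protocols. In the sperm RNA table, 42 embryos had received small RNA of sperm from control males and 46 small RNA of sperm from males fed a low protein diet, at 0.5 ng/µl per the file header. In the tRF table, 26 embryos had received a synthetic tRF-GlyGCC with modified bases, 6 a synthetic tRF-GluCTC headed as unmodified, and 11 mRNA of H3.3-GFP. In the 4-cell table, 27 embryos had received an antisense oligonucleotide to tRF-GlyGCC and 28 H3.3-GFP mRNA. A table of the authors' own comparison names the 4-cell injected group as an unmodified tRF-GlyGCC, while the labels and the table of embryos say antisense, so its identity is uncertain. The labels tie embryos to neither males, litters nor RNA preparations, so a p-value reflects embryo-to-embryo spread, which may be partly technical.

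Total counts per 2-cell embryo were 0.644 to 4.56 M (M for mega-counts), with group medians of 1.81 to 2.29 M. Depth is unknown for the 4-cell embryos, which have FPKM values (fragments scaled to transcript length and sequencing depth) and no counts. Batches were read from the end code of the titles, taken here as a date, and written A to F (sperm RNA), G and H (tRF) and J to R without O (4-cell). What the code marks is not stated. J and K share a code and were told apart by a suffix of unknown meaning. Batch R held only GFP embryos, so it is left out of the within-batch differences at the 4-cell stage. Batch H held every tRF-GluCTC embryo. The stage label was checked with markers of the 2-cell wave (Zscan4d, Zfp352, Tdpoz4, Sp110), all 4 of which were listed in every table. Their summed level had a median of 2416 to 3480 CPM in the 2-cell groups. It was 1079 FPKM with GFP and 1134 FPKM with antisense in the 4-cell embryos. Markers of later stages (Pou5f1, Tfap2c and Nanog, with Gata3 and Cdx2 listed only at 4 cells) had median sums of 276 to 388 CPM in the 2-cell groups. In 4-cell embryos their median sum was 234 FPKM with GFP and 166 FPKM with antisense. Median sums of maternal markers were 1421 to 2454 CPM, and 192 and 264 FPKM. CPM and FPKM are not on one scale, so none of these sums shows a rise or fall between the stages. Of 7 markers of granulosa and cumulus cells, 0 were listed in the 2-cell tables, and at the 4-cell stage they summed to at most 2.30 FPKM in an embryo. Of 2 erythroid markers, 0 were listed in the 2-cell tables, and Hba-a1 was listed at the 4-cell stage. It ran from 0.0427 to 244 FPKM with GFP (median 48.99) and from 0.171 to 266 FPKM with antisense (median 54.9), and its part in the results was not tested.

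Hmgcs1 encodes the cytosolic HMG-CoA synthase at the entry of the pathway. Idi1 interconverts isopentenyl and dimethylallyl diphosphate, Fdps joins these units into farnesyl diphosphate, and Fdft1, squalene synthase, makes squalene from that product. Sqle oxidises squalene, Lss closes it into lanosterol, Cyp51 removes a methyl group from lanosterol, and Dhcr7 is a reductase at the end of the pathway. In many cells the transcription factor SREBP2 switches these genes on together. When sterols run low, Insig lets go of the complex of SREBP2 and Scap, and Scap carries SREBP2 to the Golgi, where it is cut and freed for the nucleus. SREBP2 binds sterol regulatory elements near their starts, with the factor NF-Y and the GC-box factor Sp1 bound close by. A paternal low protein diet has been tied to cholesterol synthesis genes in offspring liver, which is background for looking at them in embryos that received sperm RNA.

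Upstream sequences were at hand for 5 of the 8 genes (Idi1, Hmgcs1, Lss, Cyp51 and Dhcr7, the last with 3 annotated starts), from RefSeq on GRCm38.p6. Idi1 and Hmgcs1 are shown because they were the most alike pair over embryos in the sperm RNA table (Spearman rho 0.41). The 250 bases before each start are given 5′ to 3′ on the strand of the gene, with motif matches in capitals. The motifs searched on both strands were TCACNCCAC (the core of a sterol regulatory element), CCAAT (the NF-Y box) and GGGCGG (the GC box). No match of one overlapped another in these windows. The Idi1 window is chr13:8885356-8885605 and the Hmgcs1 window chr13:119690101-119690350, both on the plus strand.
Idi1: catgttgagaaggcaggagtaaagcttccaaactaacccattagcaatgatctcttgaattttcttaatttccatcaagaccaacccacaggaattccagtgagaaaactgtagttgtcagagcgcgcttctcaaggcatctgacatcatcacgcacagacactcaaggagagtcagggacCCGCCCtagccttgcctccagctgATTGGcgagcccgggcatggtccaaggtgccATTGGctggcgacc
Hmgcs1: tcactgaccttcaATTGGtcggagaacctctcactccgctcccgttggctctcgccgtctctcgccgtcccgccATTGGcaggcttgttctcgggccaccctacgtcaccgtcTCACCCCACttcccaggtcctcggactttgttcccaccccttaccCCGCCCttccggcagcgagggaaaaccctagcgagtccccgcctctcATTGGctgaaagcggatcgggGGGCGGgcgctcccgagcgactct

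The sterol element core occurred once among these 5 genes, in Hmgcs1, 137 to 129 bases before the start. It was found before 346 of 32851 annotated mouse starts (1.05%). Idi1 had the NF-Y box at 2 places and the GC box at 1, and Hmgcs1 had the NF-Y box at 3 and the GC box at 2. Over all starts, 33.9% held the NF-Y box and 32.7% the GC box. Lss and Cyp51 each had 1 NF-Y box, with 2 GC boxes before Lss and 1 before Cyp51. For Dhcr7, start 1 had the GC box without the NF-Y box, and start 2 had no match. Its start 3 had both the NF-Y box and the GC box, each more than once. A match describes the letters of the window and is no evidence of binding.

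The 8 genes did not have one common level. Per kilobase of transcript, in 2-cell GFP embryos, Sqle (125 ± 41.4 CPM per kb, SD, n = 11), Fdft1 (110 ± 32.1) and Hmgcs1 (102 ± 31.4) were the most abundant. These 3 differed by less than 1 SD between embryos. Dhcr7 (56.1 ± 24.97 CPM per kb) and Fdps (50.2 ± 19.1) followed and were within 1 SD of each other. Idi1 (15.2 ± 8.53), Cyp51 (11.4 ± 7.64) and Lss (8.08 ± 7.26) were lowest and also within 1 SD of each other. The control sperm RNA embryos, in their own table, had Fdft1 first (124 ± 40.6 CPM per kb, n = 42), then Sqle (106 ± 41.05) and Hmgcs1 (82.7 ± 32.4). Cyp51 was last there, at 5.81 ± 4.59 CPM per kb.

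In 4-cell embryos the order was different. Fdps was highest (199.97 ± 64.96 FPKM in GFP embryos, n = 28), then Fdft1 (162 ± 38.98), and the next, Sqle, was at 43.9 ± 18.01. Lss (38.2 ± 10.7 FPKM), Dhcr7 (34.07 ± 21.03) and Hmgcs1 (34.003 ± 13.92) lay within 1 SD of Sqle. Idi1 was at 11.4 ± 6.76 FPKM and Cyp51 at 2.51 ± 1.72.

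The stages come from separately normalised tables, so each gene was placed by its rank within each GFP embryo among 8488 genes that both tables list. Lss had percentiles of 3.28 to 57.4 (median 23.3) in the 11 2-cell embryos and 60.9 to 83.4 (median 73.2) in the 28 4-cell embryos, so that the stages did not overlap. Sqle went the other way, from 86.98 to 96.4 (median 91.5) at the 2-cell stage to 43.6 to 85.7 (median 77.5) at the 4-cell stage, also without overlap. Hmgcs1 had a median percentile of 90.6 at 2 cells and 69.9 at 4 cells, and Fdps 79.0 and 94.2, each with overlapping ranges. The median percentile of Fdft1 was 90.9 and 92.7, that of Idi1 50.7 and 45.9. No test was made across the tables, and how many of the 8488 genes also lacked overlap was not counted. The separation is thus not shown to be particular to Lss and Sqle. The 2-cell ranks used GENCODE transcript lengths and the 4-cell ranks the authors' FPKM, and the part of this difference in the ranks was not tested.

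**Figure D1:**
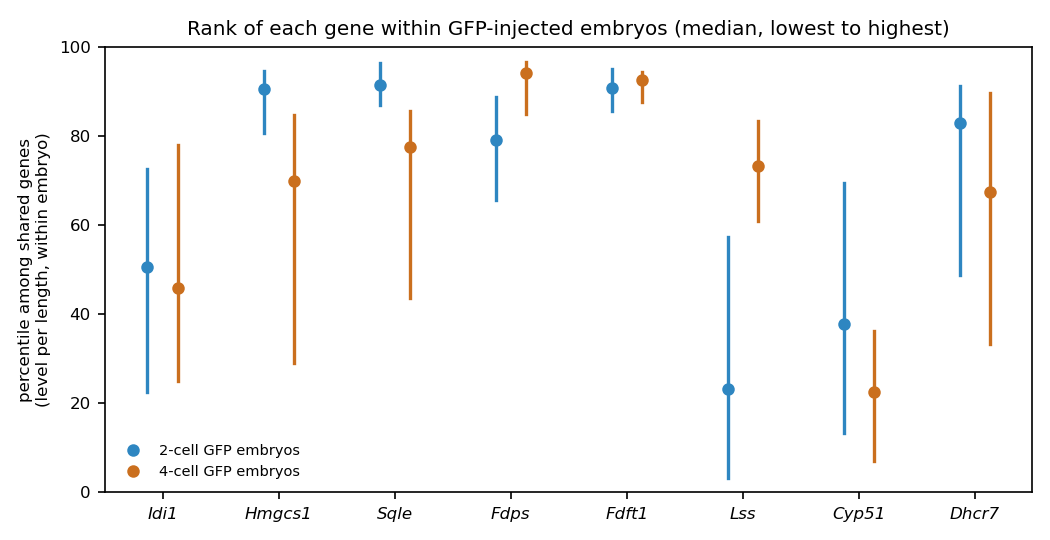
Percentile of each gene, by level per length, among 8488 genes within each GFP-injected embryo. Points are medians and bars run from the lowest to the highest embryo, for 11 2-cell embryos (blue) and 28 4-cell embryos (orange). The bars of Lss and Sqle do not overlap between the stages, and the share of all 8488 genes without overlap was not counted.

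The first comparison asked whether small RNA of low protein sperm changed these genes in the 2-cell embryo relative to small RNA of control sperm. No gene of the 8 passed the test (edgeR quasi-likelihood with a batch term, adjusted over 8721 genes), against 0.0917% of all genes tested. At an unadjusted p under 0.05, 1 of the 8 was found, Idi1, against 3.99% of all genes. Because the 8 were chosen with earlier results known, shares over all genes are no neutral yardstick for them, here or below. Of the 8 fitted changes 5 were above 0 and 3 below, with a median log2 fold change of 0.14 beside 0.02 over all genes. DESeq2 also called 0 of the 8, with 1 at an unadjusted p under 0.05 (5.48% of all genes).

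Idi1 ran from 0 to 110 CPM (median 31.5) in the 42 control embryos. In the 46 low protein embryos it ran from 0.937 to 269 CPM (median 47.8). The groups overlapped widely, with 31 of 46 low protein embryos above the control median and 5 above the highest control embryo. The means were 61.7 ± 56.9 and 34.6 ± 23.5 CPM (SD). The fitted difference was 1.83-fold (95% interval 1.296 to 2.58, p = 0.000758, edgeR adjusted p = 0.315), number 21 of 8721 genes by p.

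Within the 6 batches, the difference of the mean log2(CPM + 1) of Idi1 was above 0 in 5. It was 0.87 in batch E (25 low protein and 17 control embryos), 0.85 in A and 1.37 in C. It was smaller in F (0.31), in D (0.03, with 1 control embryo) and in B (−0.02). Single embryos carried much of the mean in the small batches: the highest low protein embryos, at 269 and 256 CPM, were in batches D and F. The 1 control embryo at a count of 0 was in batch E, where a count of 0 allows up to 1.11 CPM at its depth (3 counts). Over other filters, scalings, tools and left-out embryos the edgeR or DESeq2 adjusted p of Idi1 was 0.101 to 1.00 and its log2 fold change 0.81 to 0.89.

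**Figure D2:**
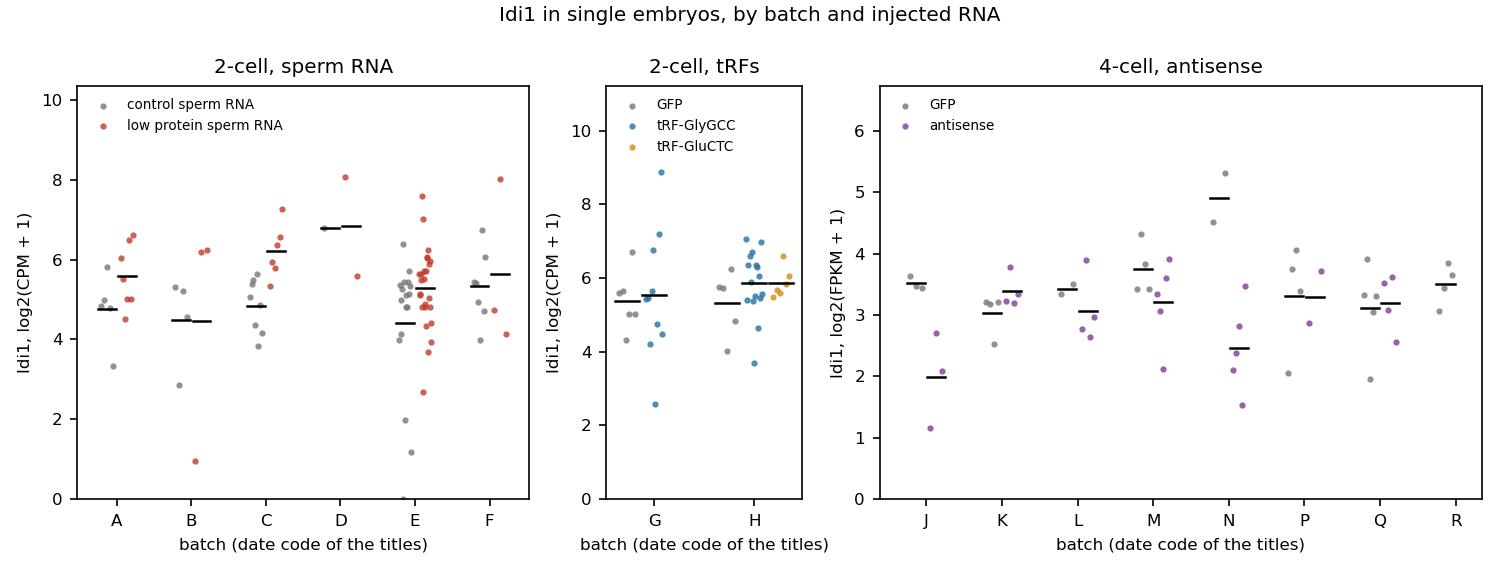
Idi1 in every embryo by batch, as log2(CPM + 1) for the 2-cell tables and log2(FPKM + 1) for the 4-cell table. Dots are embryos and black bars the mean of a group within a batch. Low protein means lie above control means in 5 of 6 batches, 1 tRF-GlyGCC embryo of batch G stands at 469 CPM, and both GFP embryos of batch N are the highest of the 4-cell table.

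The 7 other genes had fitted folds of 0.937 (Dhcr7) to 1.14 (Cyp51) with low protein sperm RNA. Hmgcs1 had a median of 309 CPM (92.8 to 783) against 264 CPM (73.6 to 500.4), and Sqle 308 CPM (144 to 749) against 277 CPM (130.1 to 595). Fdps had 77.6 CPM (14.7 to 171) against 72.02 CPM (20.6 to 166). Most low protein embryos lay within the control range of each. Of the 46, 4 were above the highest control embryo for Hmgcs1, 2 for Sqle and 2 for Fdps, and 1 was below the lowest for Fdps. The fitted fold of Hmgcs1 was 1.12 (95% interval 0.946 to 1.33), of Sqle 1.13 (0.964 to 1.33) and of Fdps 1.09 (0.886 to 1.33). Fdft1 had a median of 418 CPM (208 to 945) with low protein RNA and 429 CPM (248 to 830.5) with control RNA, a fold of 0.962 (0.843 to 1.10), the narrowest interval of the 8.

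The enzymes after squalene oxidation had wider intervals than Fdft1, Hmgcs1 and Sqle. Lss had a median of 46.1 CPM (0 to 142) with low protein RNA and 47.0 CPM (2.71 to 139) with control RNA, a fold of 0.955 (0.702 to 1.299). Dhcr7 had 135 CPM (0 to 357) and 151 CPM (23.1 to 324), a fold of 0.937 (0.739 to 1.19). Cyp51 had 20.3 CPM (0 to 141) and 17.6 CPM (0 to 74.7), a fold of 1.14 (0.691 to 1.88). Cyp51 was at a count of 0 in 10 of 88 embryos, where 3 counts would be 1.35 to 4.42 CPM. For these 7 genes the edgeR adjusted p was 0.9997, and an interval that includes 1 does not show equal levels.

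**Figure D3:**
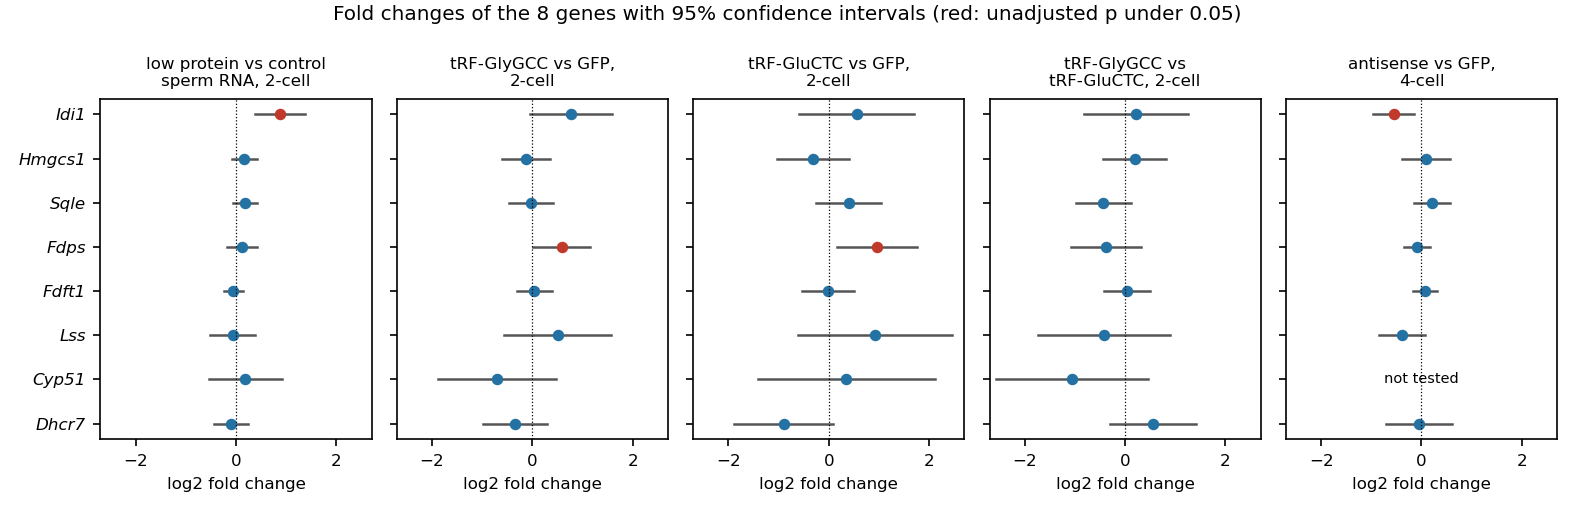
Fitted log2 fold changes of the 8 genes (points) with 95% confidence intervals (lines) in the 5 comparisons, from edgeR for 2-cell embryos and limma on log2(FPKM + 1) for 4-cell embryos. Red points have an unadjusted p under 0.05: Idi1 in the first and the last panel and Fdps in the second and the third.

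The next comparisons asked what the synthetic tRFs did relative to GFP mRNA. Both share the same 11 GFP embryos, so their values stand side by side and do not support each other. No gene of the 8 passed with tRF-GlyGCC (0% of 8804 genes by edgeR, and 0 by DESeq2), and none with tRF-GluCTC (0% by edgeR). At an unadjusted p under 0.05 there was 1 of 8 in each, Fdps both times, against 3.24% of all genes with tRF-GlyGCC and 3.46% with tRF-GluCTC. DESeq2 had 2 of 8 at that level in each comparison, Fdps and Idi1 with tRF-GlyGCC (against 4.65% of all genes) and Fdps and Dhcr7 with tRF-GluCTC (against 4.85%).

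Fdps, the synthase of farnesyl diphosphate, ran from 33.95 to 120.1 CPM (median 55.6) with GFP. With tRF-GlyGCC it ran from 15.6 to 236 CPM (median 94.3), with 9 of 26 embryos above the highest GFP embryo and 2 below the lowest. With tRF-GluCTC it ran from 43.1 to 203 CPM (median 170), and 5 of 6 embryos were above the highest GFP embryo. The fitted fold was 1.502 with tRF-GlyGCC (95% interval 1.01 to 2.22, p = 0.0429, edgeR adjusted p = 0.9999). It was 1.95 with tRF-GluCTC (1.12 to 3.41, p = 0.0193, edgeR adjusted p = 0.9998). GFP embryos themselves differed by batch, with a mean of 53.1 ± 14.2 CPM in G (n = 6) and 80.9 ± 28.1 CPM in H (n = 5). In batch H, where all tRF-GluCTC embryos were, their mean of Fdps was 151 CPM, that of tRF-GlyGCC 114 CPM. Fitted on batch H alone, the log2 fold change of Fdps with tRF-GluCTC was 0.90 (p = 0.0566, edgeR adjusted p = 0.99998), and 0 of 8 genes had an unadjusted p under 0.05 (2.11% of all genes).

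Dhcr7 pointed down. It had a median of 158 CPM (34.6 to 288) with GFP, 111 CPM (41.6 to 233) with tRF-GlyGCC and 82.4 CPM (0 to 108) with tRF-GluCTC. Each of the 6 tRF-GluCTC embryos was below the GFP median, and 1 was below the lowest GFP embryo, at a count of 0 (up to 2.39 CPM). The fold was 0.537 with tRF-GluCTC (0.271 to 1.06, p = 0.0732) and 0.791 with tRF-GlyGCC (0.508 to 1.23). GFP embryos of batch G had a mean of 196 CPM of Dhcr7 and those of batch H 113 CPM. In batch H, tRF-GlyGCC embryos had 108.6 CPM and tRF-GluCTC embryos 70.3 CPM. The fit on batch H alone gave Dhcr7 a log2 fold change of −0.68 with tRF-GluCTC (p = 0.266), against −0.90 with both batches.

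Idi1 had the same median with GFP (47.5 CPM, 15.3 to 103) and with tRF-GlyGCC (47.5 CPM, 4.99 to 469). The highest tRF-GlyGCC embryo, of batch G, stood apart at 469 CPM, and the next was at 145 CPM. With it the log2 fold change was 0.77 (p = 0.0624, edgeR adjusted p = 0.9999), and without it 0.34 (p = 0.332). With tRF-GluCTC Idi1 ran from 43.6 to 95.9 CPM (median 53.01), all within the GFP range, and the log2 fold change was 0.56 ± 0.57 (SE).

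Lss was spread over the whole range in every group, at 0 to 94.0 CPM with GFP (median 24.3), 0.714 to 124 CPM with tRF-GlyGCC (median 47.1) and 0 to 104 CPM with tRF-GluCTC (median 60.2). Its fold was 1.42 (0.673 to 2.98) and 1.90 (0.655 to 5.50) against GFP. Cyp51 had a median of 38.9 CPM (13.4 to 119.6) with GFP and 16.1 CPM (0 to 107) with tRF-GlyGCC, with 10 of 26 embryos below the lowest GFP embryo and 5 at 0 counts. The fitted fold was 0.613 (0.271 to 1.39, p = 0.234). With tRF-GluCTC Cyp51 had a median of 32.6 CPM and 1 embryo at 181 CPM, a fold of 1.27 (0.375 to 4.32).

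Sqle had a median of 328 CPM with GFP, 316 CPM with tRF-GlyGCC and 430.1 CPM with tRF-GluCTC. Hmgcs1 had 320.5, 298.5 and 198 CPM, and Fdft1 367, 409 and 481 CPM, in the same order. The 3 groups overlapped for each of these genes. The fold of Fdft1 was 1.03 (0.805 to 1.31) with tRF-GlyGCC and 0.996 (0.696 to 1.43) with tRF-GluCTC.

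Between the tRFs themselves, 0 of 8 genes passed (0% of 8804 genes by edgeR), and 0 of 8 had an unadjusted p under 0.05, against 2.2% of all genes. DESeq2 also called 0 of the 8 and had 0 at that level (3.63% of all genes), as had the fit on batch H alone (1.65%). The largest fitted difference among the 8 was Cyp51, lower with tRF-GlyGCC than with tRF-GluCTC (fold 0.482, 0.169 to 1.38). Dhcr7 was 1.47-fold in the other direction (0.816 to 2.66), and 15 of 26 tRF-GlyGCC embryos had more of it than the highest tRF-GluCTC embryo. That count pools batches G and H, while every tRF-GluCTC embryo was in H. The tRF-GlyGCC mean of Dhcr7 was 129 CPM in G and 108.6 CPM in H, against 70.3 CPM with tRF-GluCTC in H. The RNAs also differed in modified bases, so sequence and modification cannot be told apart. Median log2 fold changes over the 8 genes were 0.00 with tRF-GlyGCC, 0.37 with tRF-GluCTC and −0.17 between them, beside 0.04, −0.01 and 0.05 over all genes.

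**Figure D4:**
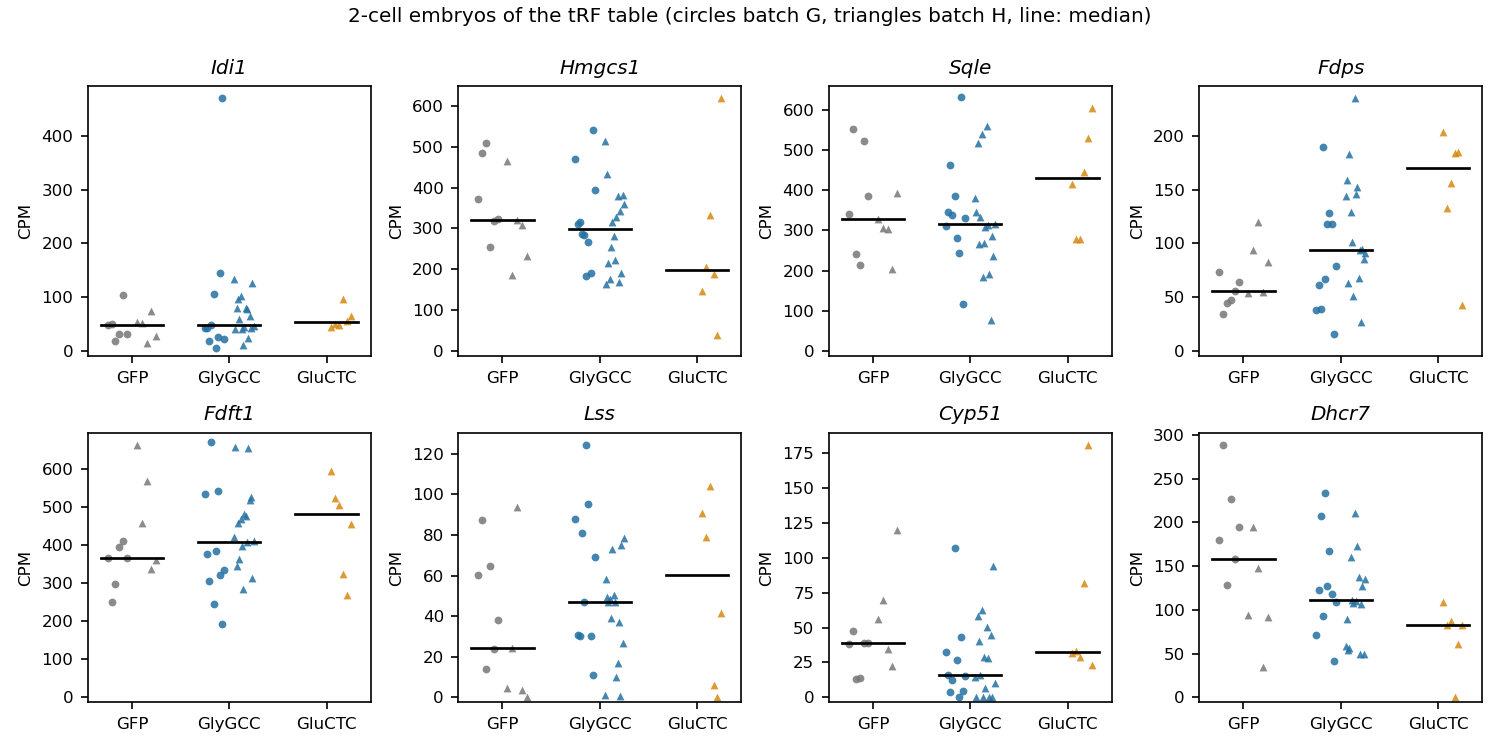
CPM of the 8 genes in each 2-cell embryo of the tRF table, by injected RNA, with circles for batch G, triangles for batch H and lines at the median. Fdps lies above the GFP range in 5 of 6 tRF-GluCTC embryos, and Idi1 has a single tRF-GlyGCC embryo at 469 CPM.

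At the 4-cell stage the comparison was antisense to tRF-GlyGCC against GFP. Of the 7 genes with a mean of at least 5 FPKM, 0 passed (limma on log2(FPKM + 1), 0.0276% of 7237 features), and 1 had an unadjusted p under 0.05, against 10.9% of all features. With that background, 1 of 7 is no result about the genes. The median log2 fold change of the 7 was −0.05, beside 0.01 over all features.

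Idi1 was that gene. It ran from 2.91 to 38.8 FPKM (median 9.83) with GFP and from 1.224 to 14.02 FPKM (median 7.40) with antisense. The ranges overlapped. The GFP median was exceeded by 8 of 27 antisense embryos, and 2 were below the lowest GFP embryo. The log2 fold change was −0.55 ± 0.20 (SE, p = 0.00948, limma adjusted p = 0.252). Batch N held the highest GFP embryos, at 38.8 and 21.9 FPKM, against a mean of 5.13 FPKM in its 5 antisense embryos. Without batch N, an alternative chosen after seeing the data, the log2 fold change was −0.29 (p = 0.126, limma adjusted p = 0.528). Within batches the difference was below 0 in 5 of 7. The same 2 GFP embryos of batch N had 61.9 and 69.1 FPKM of Fdps, the lowest of the GFP group.

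Lss had a median of 37.8 FPKM (11.1 to 71.1) with GFP and 31.7 FPKM (0 to 50.6) with antisense. Antisense embryos were lower in 6 of 7 batches, and 5 of 27 exceeded the GFP median. The log2 fold change was −0.39 ± 0.22 (SE, p = 0.0906, limma adjusted p = 0.544). Outside batch N it was −0.34 (p = 0.0173, limma adjusted p = 0.313). The embryo listed at 0 was antisense replicate 19 of batch N, and without antisense replicates 19 and 9 the log2 fold change of Lss was −0.23 (p = 0.0766, limma adjusted p = 0.381).

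The other genes had log2 fold changes of 0.20 ± 0.18 (Sqle), 0.09 ± 0.24 (Hmgcs1), 0.07 ± 0.12 (Fdft1), −0.05 ± 0.33 (Dhcr7) and −0.09 ± 0.13 (Fdps), each with its SE. Outside batch N, which held the lowest GFP embryos of Fdps, that of Fdps was −0.26 (p = 0.0379, limma adjusted p = 0.371). There 2 of 7 genes, Lss and Fdps, had an unadjusted p under 0.05, against 12.6% of all features there. Sqle ran from 4.23 to 84.6 FPKM (median 45.7) with GFP and from 17.5 to 139 FPKM (median 47.1) with antisense, and Fdps from 61.9 to 327 FPKM (median 201) and from 86.4 to 281 FPKM (median 173). Antisense embryos overlapped the GFP range for each of these 5 genes. Cyp51 was below the limit for testing, at a mean of 2.51 FPKM with GFP and 2.26 FPKM with antisense. In the authors' deposited table, group FPKM of Idi1 were 13.9 and 8.83 (p = 0.0094, q = 0.223). That table calls 0 of the 8 significant.

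Among embryos of the same group, the genes differed in how far they spread. In the sperm RNA table the coefficient of variation, from edgeR's gene-wise dispersion, was 0.310 for Fdft1 and 0.451 for Fdps, each at percentile 8.8 among 500 genes of like mean. It was 0.369 for Sqle, 0.400 for Hmgcs1 and 0.509 for Dhcr7. Idi1 (0.747) was at percentile 69.4 and Cyp51 (1.04) at 75.8. The tRF table placed Fdft1 low again (0.350, percentile 4.8) and Cyp51 high (1.10, percentile 94.8). Among 4-cell embryos Dhcr7 was the most spread of the 8, with an SD of 1.19 in log2(FPKM + 1) within batch and group, at percentile 97.6 of features of like mean. Its GFP embryos ran from 2.29 to 89.6 FPKM. The sum of the 8 genes was 1367 ± 217 CPM with control and 1445 ± 261 CPM with low protein sperm RNA.

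The 8 genes were also compared with each other embryo by embryo. Over the 28 pairs of the 8 genes, with log2 values centred within batch and group, Spearman rho was above 0 in 15 pairs in the sperm RNA table (median 0.01, n = 87 embryos), in 14 in the tRF table (median −0.01, n = 43) and in 19 at the 4-cell stage (median 0.13, n = 55). The extreme pairs were Dhcr7 with Sqle at the 4-cell stage (rho 0.56) and Fdps with Hmgcs1 in the tRF table (rho −0.56). In the other tables these pairs had rho of 0.13 and 0.15, and of −0.17 and −0.32. All 8 values of an embryo share one library and its depth.

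**Figure D5:**
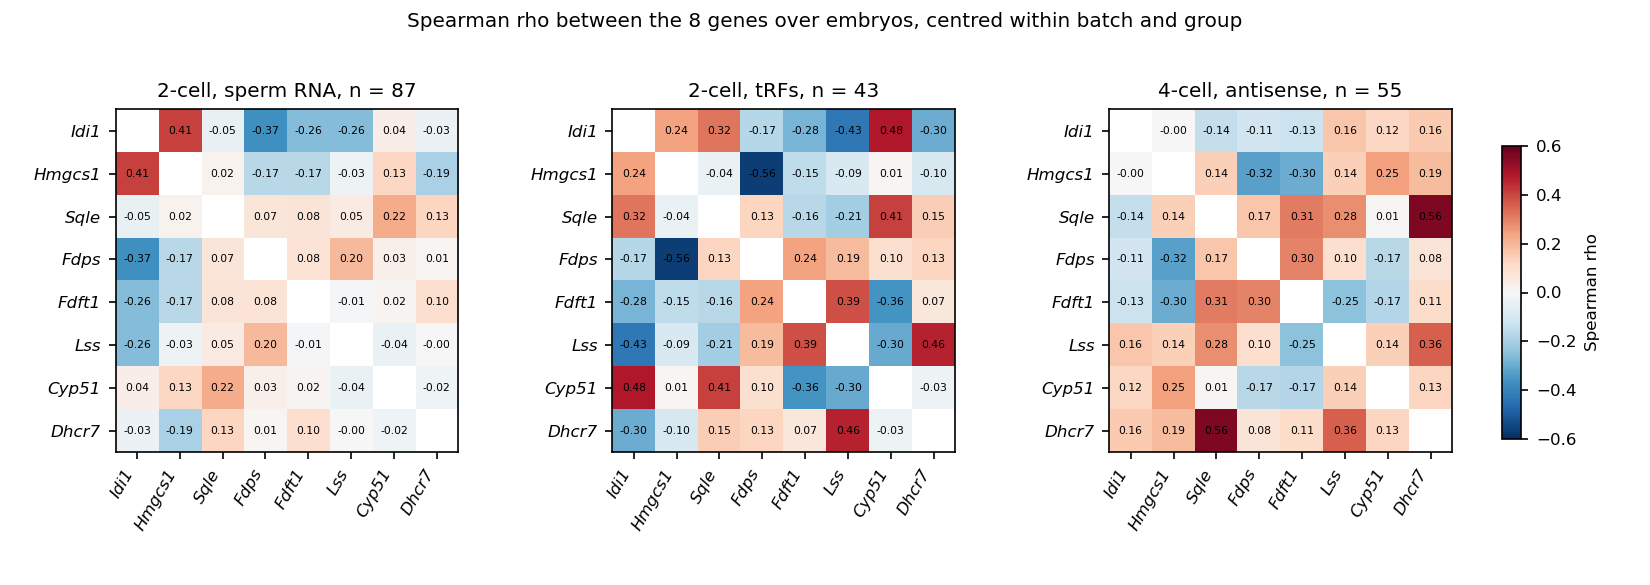
Spearman rho between the 8 genes over embryos, with log2 values centred within batch and group, for the sperm RNA table (n = 87), the tRF table (n = 43) and the 4-cell table (n = 55). Red is positive and blue negative on a scale from −0.6 to 0.6. No block of red covers the 8 genes in any table.

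Idi1 was set against each of the other 7 genes in the 3 tables, which makes 21 relations in one family (two-sided permutation tests, 100000 permutations). In the sperm RNA table Idi1 rose with Hmgcs1 over 87 embryos (Pearson r 0.355, p = 0.00072, adjusted p = 0.00728; Spearman rho 0.41, p = 0.00012, adjusted p = 0.00252). It went against Fdps (r = −0.409, permutation p = 0.00014, adjusted p = 0.00294; rho = −0.37, p = 0.00052, adjusted p = 0.00546). Without the 2 embryos farthest from the median of Idi1, r was 0.354 and −0.439. Both rho lie within the 5th to 95th percentile of Idi1 with 6719 genes of at least 20 CPM (−0.39 to 0.43). They lie just outside that of Hmgcs1 (95th percentile 0.32) and that of Fdps (5th percentile −0.34) with the same genes. In the tRF table the same pairs had rho of 0.24 and −0.17, and at the 4-cell stage of −0.00 and −0.11, with adjusted permutation p of 0.2487, 0.4395, 0.9854 and 0.5088.

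In the tRF table Idi1 went with Cyp51 (rho 0.48, permutation p = 0.00121, adjusted p = 0.00847) and against Lss (rho −0.43, permutation p = 0.00462, adjusted p = 0.02425). Both rho lie within the 5th to 95th percentile of Idi1 with 6766 genes of at least 20 CPM (−0.52 to 0.52). The rho with Lss also lies within that of Lss (−0.58 to 0.63), while the rho with Cyp51 lies above the 95th percentile of Cyp51 (0.39). The Pearson r of these 2 relations had adjusted permutation p of 0.1155 and 0.07497. Among 4-cell embryos r of Idi1 with Lss was 0.429 (adjusted permutation p = 0.00728), while rho was 0.16 (adjusted permutation p = 0.4395). Over the same embryos, Idi1 had a rho of 0.27 (sperm RNA), 0.49 (tRF) and −0.09 (4-cell) with the summed maternal markers (Obox1, Oosp1, Zp3, Nlrp5 and Bcl2l10). Lss had −0.29, −0.61 and −0.40 with that sum. With the total count per embryo in the tRF table, rho was −0.21 for Idi1, −0.45 for Cyp51 and 0.39 for Lss. The parts of maternal RNA content and of depth in these relations were not tested.

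The genes most like Idi1 over embryos were Gm10436, Ralgps2, Kbtbd8, Me1 and Ccdc186 in the sperm RNA table (rho 0.61 to 0.62, n = 87). In the tRF table they were Ube2k, Adss, Loh12cr1, Msl3 and Rab14 (rho 0.70 to 0.74, n = 43), and at the 4-cell stage Rdh13, Sh3d21, Lipt1 and Slc25a12 (rho 0.56 to 0.64, n = 55). None of these genes was named in more than 1 table.

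The rest of the pathway was read from wider lists of cholesterol enzymes, sterol sensing, sterol transport, the isoprenoid branch and fatty acid synthesis. By edgeR, 0 of 47 tested genes of these lists passed with low protein sperm RNA, 0 of 48 in each tRF comparison and, by limma, 0 of 37 with antisense. At an unadjusted p under 0.05 there were 2 (2 higher), 2 (1 higher), 3 (2 higher), 0 and 0, against 3.99%, 3.24%, 3.46%, 2.2% and 10.9% of all genes. Such counts are near or below what those shares give for lists of this length, except for the 3 with tRF-GluCTC, and none of the genes named next passed the adjusted threshold. With low protein RNA these were Hsd17b7, a reductase of sterol synthesis (94.6 ± 58.6 against 67.7 ± 31.6 CPM, log2 fold change 0.48, p = 0.00591, edgeR adjusted p = 0.879), and Mlxipl, a glucose-responsive factor of lipid genes (24.1 ± 16.2 against 16.5 ± 12.9 CPM, 0.56). With tRF-GlyGCC they were Npc2, a sterol carrier of lysosomes (log2 fold change 0.56), and Fasn, the fatty acid synthase (−0.89). With tRF-GluCTC they were Pdss2 (1.85) and Ggps1 (1.26), which extend isoprenoid chains, and Scarb1, a lipoprotein receptor (−1.49). By direction, 8 of 9 listed cholesterol enzymes were higher with each tRF than with the shared GFP embryos, and 4 of 9 with low protein RNA. Their median log2 fold changes were 0.42 (tRF-GlyGCC), 0.71 (tRF-GluCTC) and −0.06 (low protein). Of 9 sterol sensing genes, 4 were higher with tRF-GlyGCC and 2 with tRF-GluCTC. No list was tested as a set.

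The regulators were expressed at unequal levels. In 2-cell control embryos Insig1 had 248 ± 141 CPM and Scap 209 ± 122 CPM, while Srebf2 had 17.6 ± 12.5 CPM. With low protein sperm RNA their log2 fold changes were 0.09 (Insig1), −0.14 (Scap) and −0.05 (Srebf2), each with an edgeR adjusted p of 0.9997. With tRF-GlyGCC against GFP they were 0.14, −0.18 and −0.68 in the same order (edgeR adjusted p = 0.9999 each). With tRF-GluCTC against GFP they were −0.35, −0.39 and −0.95 (edgeR adjusted p = 0.9998 each). In 4-cell embryos, antisense against GFP, Insig1 had a log2 fold change of 0.21 and Scap of −0.08. Srebf1, Srebf2 and Insig2 were at means of 1.07 to 4.06 FPKM and were not tested.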

How the data were processed

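Single-embryo libraries were made with a single-cell RNA-seq and Nextera kit, per the labels' protocols, and Bowtie and mm10 are named in the submitters' processing notes. No source used here states versions or the counter. The 2-cell tables hold expected counts deposited by the authors, with 0 written as 0.1, and the 4-cell table holds FPKM deposited by the authors, with 0 written as 0.001. The authors' deposited comparison table gave group FPKM with a p-value and q-value and was only copied.

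Expected counts were rounded and tested with edgeR 4.0.16 in R 4.3.3 (TMM, filterByExpr, quasi-likelihood, batch term), the 3 groups of the tRF table in one fit. CPM are TMM-scaled. For the 4-cell table, limma 3.58.1 (trend and robust) took log2(FPKM + 1) where the mean over embryos reached 5 FPKM. That scale understates changes of low genes. All tests are two-sided, and Benjamini-Hochberg adjustment ran over all genes tested with a threshold of 0.05. DESeq2 1.42.0 was an alternative, as were other filters, pseudocounts, scalings, batch terms and left-out embryos. Tests were checked on simulated data with known changes and no batch effect. That check says nothing on batches or other grouping of embryos. Intervals are 95% and cover the spread between embryos, while limits for 0 counts use 3 counts and cover counting error only.

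The genes named are the 8 members, a fixed set of sterol regulators, genes of wider lists with an unadjusted p under 0.05, and the 5 genes most like Idi1 per table. Some genes that this rule names are not reported here. Members and lists were chosen with earlier results of these data known. Transcript lengths came from GENCODE, matched through the RefSeq accessions of the files. Replicate numbers follow accession order. For 1 of 28 labelled antisense embryos no column matched, and it is not analysed here. The embryo alone in its batch and group was left out of correlations.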

Additional observations from a re-analysis of the deposited data

Results flagged for a closer look

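In the group of 6 tRF-GluCTC embryos, Cyp51 was at 180.6 CPM in replicate 5, and the next embryo was at 81.5 CPM. That gap was 0.629 of the range of the group, just past the limit that chance exceeds in about 1 in 20 groups. It was the 1 of 16 such checks (8 genes, the highest and the lowest embryo) to pass, and 1 pass among so many can arise by chance. The limit assumes normally spread values, which CPM need not be. The same embryo had the lowest Hmgcs1 of the group, at 37.7 CPM, and was at a count of 0 for Lss.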

How the results depend on the processing

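No gene of the 8 passed in any comparison under any alternative run. Of 210 values of single genes under alternatives, 198 kept their direction and side of the threshold and 12 changed sign. With low protein sperm RNA the log2 fold change of Lss, −0.07 as reported, was 0.0402 with the replicate block and 0.0162 without control replicates 26 and 22 (the shallowest), and that of Dhcr7, −0.09 as reported, was 0.0461 with the replicate block. Without the batch term Fdft1 was at 0.13 (from −0.01) with tRF-GluCTC relative to GFP and at −0.0624 (from 0.04) for tRF-GlyGCC relative to tRF-GluCTC. The largest of these moves was that of Lss between the tRFs, from −0.42 to 0.13 with the replicate block. That block also took the p of Fdps with tRF-GlyGCC from 0.0429 to 0.0764 (edgeR) and the log2 fold change of Idi1 from 0.77 to 0.35. Sqle was at 0.0205 (from −0.03) for tRF-GlyGCC without replicate 18. In 4-cell embryos Dhcr7, −0.05 as reported, was at 0.0231 without the batch term, 0.23 without antisense replicates 19 and 9 and 0.14 outside batch N, and Fdft1, 0.07 as reported, was at −0.00264 with upper-quartile scaling and −0.00616 outside batch N. Leaving out tRF-GlyGCC replicate 18 or batch N was chosen after seeing the data. The cause was not tested.

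Counts over all genes moved more. With low protein sperm RNA 8 genes were called, 18 by DESeq2, 16 without the batch term, 0 with the replicate block and 0 without control replicates 26 and 22. DESeq2 called 1 gene in place of 0 for tRF-GluCTC relative to GFP and 1 in place of 0 for the 2 tRFs. Among 4-cell embryos 2 features were called, 1 with upper-quartile scaling and 10 without antisense replicates 19 and 9. The replicate block joined the F number of the titles to the batch. Embryos of different groups that shared both had a median correlation of 0.03 in the sperm RNA table and 0.13 in the tRF table. Single pairs went down to −0.47 and −0.55. Pairs with another F number had medians of −0.01 and −0.05, lower than with a shared number in both tables. The main fits did not take the number to pair embryos, and what it marks is not known here. Low counts of Cyp51, Lss and Idi1 limit what single embryos show.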
